A study of Mus musculus with 12 samples.

Results

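The genes described here are 38 genes of DNA replication and cell division, of 52355 genes with summed transcripts in RNA-seq of CD11c cells from the mouse inguinal lymph node. They were taken from a list of gene symbols and divided by textbook role into 17 S phase members and 21 mitotic members. All 38 passed the filter on low counts. CD11c, the integrin encoded by Itgax, marks dendritic cells, and is also found on macrophages and on natural killer cells and lymphocytes after activation.

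A dividing cell first commits to replication through cyclin E and the E2F transcription factors. It then loads the MCM helicase at origins, copies its DNA around the PCNA sliding clamp with deoxynucleotides made by ribonucleotide reductase, and finally enters mitosis through cyclin B and the kinase Cdk1. Precursors of conventional dendritic cells are known to divide in lymphoid organs, and mature migratory dendritic cells are known to divide little.

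The 12 libraries formed 3 groups of 4. TdLN_CD40 libraries came from nodes draining a subcutaneous KPC tumor, a mouse model of pancreatic carcinoma, in mice given a CD40 agonist, an agent that activates antigen-presenting cells through the receptor CD40. TdLN libraries came from nodes draining such a tumor without the agonist, and Healthy_iLN libraries from inguinal nodes of mice with neither tumor nor agonist. The sources used here do not give the strain, age and sex of the mice, the KPC line, the agonist dose and timing, any vehicle or the purity of the cells. Nor do they say whether each library came from its own animal, and the p-values therefore describe variation among libraries that could be technical. Libraries are numbered 1 to 4 by a prefix of their titles, which recurs in each group.

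Library totals ran from 32626784 to 56320661 estimated counts. Levels between groups are given as CPM, counts relative to the library total over the genes tested, scaled between libraries by edgeR's TMM method. Levels between genes are given as TPM, which allow for transcript length. All 12 dendritic cell markers listed were above 1 CPM, with Itgax at 641 to 921 CPM in TdLN_CD40, 751 to 1130.0 CPM in TdLN and 647 to 1090.0 CPM in Healthy_iLN. Changes are log2 fold changes ± standard error (SE) from edgeR's quasi-likelihood test, and a gene was called where its p, adjusted by Benjamini-Hochberg over all 23729 genes tested, was under 0.05. Because same-prefix libraries deviated together from their group means, a second fit that blocks on the prefix is set beside each gene's result. The 3 comparisons share libraries, so their values are not independent.

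The promoters of the members show how the S phase and mitotic classes differ in sequence. RefSeq (GRCm38.p6) gave a promoter, 250 bases before to 50 after the transcription start, for 31 members, 14 of the S phase and 17 of the mitotic class; no entry was found for Ccne2, Mcm4, Gins2, Ccna2, Aurkb, Kif20a and Tpx2. The windows were searched on both strands for the cell cycle homology region (CHR, written TTTGAA or TTCGAA), which is bound by the DREAM and MYB-MuvB complexes, for the CCAAT box of NF-Y, and for an E2F word (TTTNGCGC or TTTCCCGC). Overlapping matches were each kept, and the share of all genes with a promoter in the table that hold a word is given with each count.

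A CHR word stood in 14 of 17 mitotic promoters and in 3 of 14 S phase promoters (E2f8, Mcm2 and Mcm7), against 21.7% of the 27025 genes with a promoter. A CCAAT box stood in 16 of 17 mitotic and 9 of 14 S phase promoters, against 41.1% of genes. The order was turned round for the E2F word, which was found in 1 of 17 mitotic promoters (Cdk1) and in 6 of 14 S phase promoters (Cdc6, Cdt1, Mcm3, Mcm5, Mcm6 and Mcm7), against 2.74% of genes. The mitotic promoters with no CHR word in the window were those of Birc5, Ccnb1 and Cenpe. A match is a description of letters and was not tested as a binding site.

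**Figure D1:**
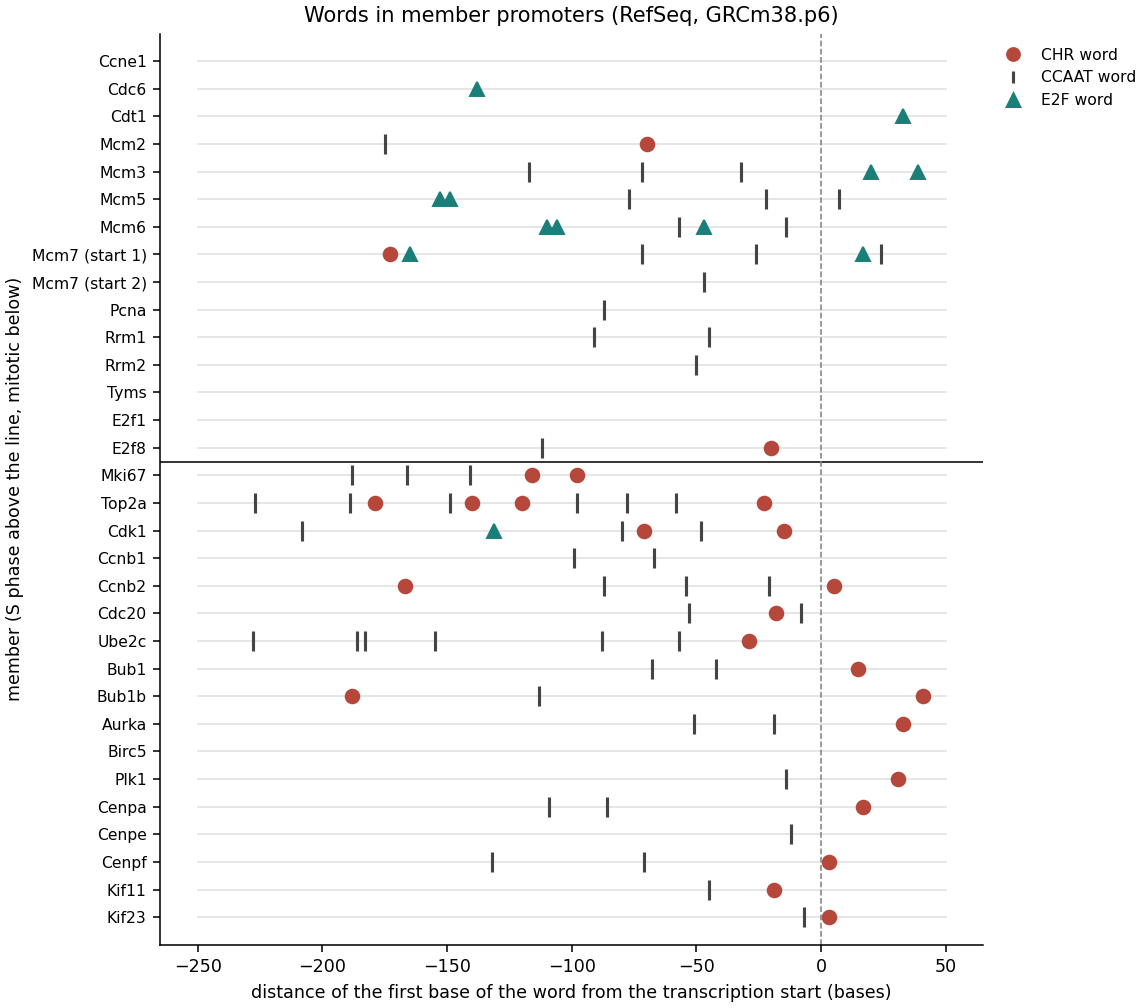
Positions of CHR (red circles), CCAAT (grey ticks) and E2F words (green triangles) in the RefSeq promoters of 31 members, as distance in bases from the transcription start, with S phase members above the line and mitotic members below it. CHR words mark 14 of 17 mitotic promoters and E2F words 6 of 14 S phase promoters.

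The 160 bases before the start are printed for 4 mitotic members with a CHR word and 2 S phase members with an E2F word, 5′ to 3′ along the gene on GRCm38.p6, with the words in capitals (CCAAT reads ATTGG and TTTGAA reads TTCAAA on the opposite strand).
Cdc20 (chr4:118437344-118437503, minus strand): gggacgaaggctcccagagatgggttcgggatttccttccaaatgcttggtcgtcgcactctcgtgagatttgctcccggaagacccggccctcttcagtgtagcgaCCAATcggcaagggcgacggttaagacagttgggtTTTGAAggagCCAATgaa
Cdk1 (chr10:69352913-69353072, minus strand): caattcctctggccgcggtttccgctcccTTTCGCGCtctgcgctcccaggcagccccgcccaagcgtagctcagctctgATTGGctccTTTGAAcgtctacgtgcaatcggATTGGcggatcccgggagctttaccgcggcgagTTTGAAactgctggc
Ube2c (chr2:164769769-164769928, plus strand): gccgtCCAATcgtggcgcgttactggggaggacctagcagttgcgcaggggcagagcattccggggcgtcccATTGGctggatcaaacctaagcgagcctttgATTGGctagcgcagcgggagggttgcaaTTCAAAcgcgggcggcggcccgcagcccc
Kif11 (chr19:37376222-37376381, plus strand): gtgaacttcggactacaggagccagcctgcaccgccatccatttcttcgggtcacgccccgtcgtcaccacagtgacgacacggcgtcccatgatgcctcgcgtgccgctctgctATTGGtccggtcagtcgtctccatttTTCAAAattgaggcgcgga
Mcm5 (chr8:75109349-75109508, plus strand): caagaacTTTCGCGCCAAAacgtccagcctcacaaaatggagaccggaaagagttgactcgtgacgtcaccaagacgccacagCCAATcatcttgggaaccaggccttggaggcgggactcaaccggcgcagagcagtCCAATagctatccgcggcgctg
Mcm6 (chr1:128359706-128359865, minus strand): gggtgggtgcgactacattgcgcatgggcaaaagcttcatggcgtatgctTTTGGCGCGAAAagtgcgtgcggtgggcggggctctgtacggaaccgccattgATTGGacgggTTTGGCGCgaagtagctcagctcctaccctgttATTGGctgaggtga

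In Cdc20 the CHR word began 18 bases before the start, in Kif11 19 bases before it and in Ube2c 29 bases before it, each with a CCAAT box further upstream. Cdk1 held CHR words 71 and 15 bases before the start together with an E2F word 131 bases before it. Mcm5 and Mcm6 each held a pair of E2F words on opposite strands that overlap.

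The members were expressed over a wide range. Pcna, the sliding clamp of the replication fork (chr2:132249162-132253314), was the highest at 90.3 ± 12.4 TPM in TdLN_CD40, 116 ± 20.3 TPM in TdLN and 96.5 ± 14.6 TPM in Healthy_iLN (SD, n = 4 each). Mcm2, a subunit of the MCM helicase (chr6:88883474-88898780), followed at 67.2 ± 28.2 TPM in TdLN_CD40, 76.8 ± 32.9 TPM in TdLN and 64.4 ± 30.5 TPM in Healthy_iLN. Among mitotic members Top2a, the topoisomerase that untangles sister chromatids (chr11:98992943-99024189), was the highest at 49.9 ± 15.03 TPM in TdLN_CD40, 65.2 ± 24.9 TPM in TdLN and 46.1 ± 18.1 TPM in Healthy_iLN. Their spreads overlapped, Pcna with Mcm2 and Mcm2 with Top2a, in all 3 groups.

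At the low end stood E2f1, a transcription factor of S phase entry (chr2:154559407-154569892), at 2.77 ± 0.359 TPM in TdLN_CD40, 3.11 ± 0.443 TPM in TdLN and 3.01 ± 0.656 TPM in Healthy_iLN. Cenpe, a kinetochore motor (chr3:135212537-135273611), was the lowest mitotic member at 4.44 ± 0.643 TPM in TdLN_CD40, 3.95 ± 1.24 TPM in TdLN and 3.09 ± 0.875 TPM in Healthy_iLN. The spreads of E2f1 and Cenpe overlapped in TdLN and Healthy_iLN. The 17 S phase members summed to 314 to 551 TPM in TdLN_CD40 libraries, 377 to 663 TPM in TdLN libraries and 282 to 565 TPM in Healthy_iLN libraries. The 21 mitotic members summed to 255 to 456 TPM in TdLN_CD40, 295 to 612 TPM in TdLN and 197 to 412 TPM in Healthy_iLN. In bulk RNA, fewer dividing cells and less of these RNAs per dividing cell cannot be told apart.

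**Figure D2:**
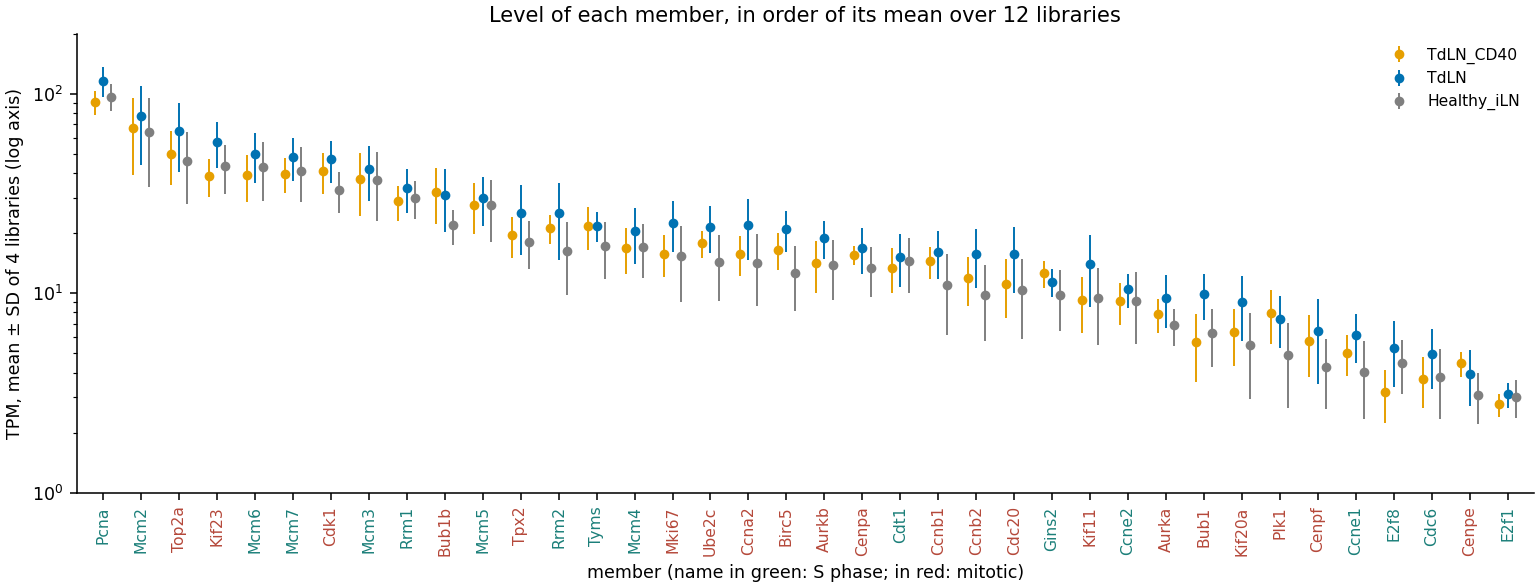
TPM of each of the 38 members on a log axis, mean ± SD of 4 libraries for TdLN_CD40, TdLN and Healthy_iLN, ordered by the mean over 12 libraries from Pcna at 101.0 TPM to E2f1 at 2.96 TPM.

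The class means differed more by prefix than by group. Of the variance of the mean log2 CPM of the S phase members, the prefix held 72.4% and the group 18.1%. For the mitotic members the prefix held 57.9% and the group 31.6%. These shares are not adjusted for there being 4 prefixes and 3 groups. Among single members, the group held more than the prefix for Ccne1 (54.4% against 42.6%), Ccne2, Tyms, Ccnb1 and Birc5 (52.9% against 27.0%). Mean mitotic log2 CPM over the 3 groups was 4.57 in prefix 1, 4.89 in prefix 2, 5.48 in prefix 3 and 5.16 in prefix 4, and mean S phase log2 CPM was 4.86, 5.07, 5.60 and 5.42 in the same order. Prefixes 1 and 2 were thus the low ones in both classes.

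Library composition moved with the prefix as well. Malat1, a nuclear noncoding RNA, took 1.25% to 2.46% of counts in the 6 libraries of prefixes 1 and 2 and 0.417% to 1.15% in those of prefixes 3 and 4. Mitochondrial genes took 2.58% to 4.74% in prefixes 1 and 2, against 1.22% to 2.20% in prefixes 3 and 4. Totals were 32626784 to 42475639 counts in the first pair of prefixes and 48371652 to 56320661 in the other. The part of these in the levels of the members was not tested.

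**Figure D3:**
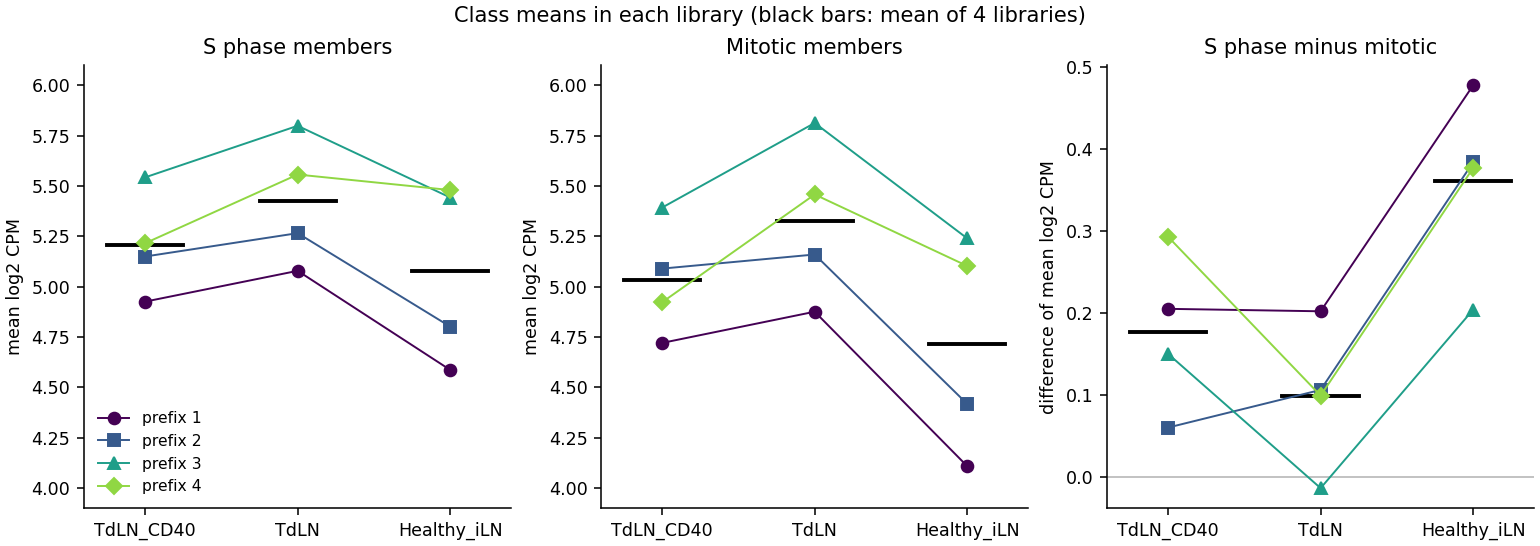
Mean log2 CPM of the 17 S phase members, of the 21 mitotic members and their difference in each library of TdLN_CD40, TdLN and Healthy_iLN, with lines joining libraries of 1 prefix and black bars at the group means. In each prefix the mitotic mean is higher in TdLN than in Healthy_iLN, by 0.36 to 0.77, and the S phase minus mitotic difference is lower, by 0.22 to 0.28.

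Tumor-draining nodes were compared with healthy nodes to ask which cell cycle genes differ in CD11c cells when a node drains a tumor. All 38 members had a positive log2 fold change, with a median of 0.59 for the mitotic and 0.26 for the S phase members, against -0.017 for all genes. Without the block no member was called by edgeR and none by DESeq2, while 14 were higher at an unadjusted p under 0.05, against 4.77% of all genes. At the adjusted threshold 0.198% of all genes were called, 0.181% higher and 0.0169% lower. Blocking on the prefix, 19 members were called higher and 0 lower, 16 of 21 mitotic and 3 of 17 S phase members. With the block 6.30% of all genes were called, 4.02% higher and 2.28% lower.

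Within prefixes, 32 members were higher in TdLN in all 4, against 19.0% of all genes, and no member was lower in all 4, against 17.0%. These were all 21 mitotic members and 11 of 17 S phase members; Ccne2, Cdt1, Mcm5, Tyms, E2f1 and E2f8 were higher in 3 of 4. Prefix 4 gave the smallest difference, with medians of 0.38 for the mitotic and 0.06 for the S phase members, against 0.73 and 0.44 in prefix 1. The groups did not overlap for Ccne1 and Birc5 only among the members, both higher in TdLN, against 2.57% of all genes higher and 1.69% lower without overlap.

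Among genes of S phase entry, Ccne1 encodes cyclin E1, which drives the start of replication with Cdk2 (chr7:38097984-38107534). It stood at 6.71, 8.22, 10.5 and 9.296 CPM in TdLN libraries 1 to 4, against 3.35, 4.45, 6.61 and 6.51 CPM in Healthy_iLN libraries 1 to 4. The lowest TdLN library exceeded the highest Healthy_iLN library (log2 fold change 0.73 ± 0.25 SE, adjusted p = 0.3797, and 0.76 ± 0.12 SE, adjusted p = 0.00557 with the block). Ccne2, the gene of cyclin E2, stood at 13.9, 16.1, 19.1 and 12.9 CPM in TdLN libraries 1 to 4, against 10.04, 9.13, 12.2 and 13.4 CPM in Healthy_iLN libraries 1 to 4. It was higher in 3 of 4 prefixes and the groups overlapped (log2 fold change 0.47 ± 0.18 SE, adjusted p = 0.479, and 0.46 ± 0.15 SE, adjusted p = 0.101 with the block).

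The helicase subunits, which unwind DNA ahead of the fork, differed less. Mcm2 stood at 48.96, 62.1, 100.2 and 93.7 CPM in TdLN libraries 1 to 4, against 34.4, 49.5, 84.3 and 89.6 CPM in Healthy_iLN libraries 1 to 4. It was higher in every prefix by a small margin that the spread between prefixes exceeded (log2 fold change 0.24 ± 0.32 SE, adjusted p = 0.853, and 0.28 ± 0.09 SE, adjusted p = 0.0887 with the block). Mcm5 averaged 103 ± 29.2 CPM in TdLN and 88.1 ± 34.9 CPM in Healthy_iLN (SD, n = 4 each), and was higher in 3 of 4 prefixes (log2 fold change 0.23 ± 0.29 SE, adjusted p = 0.845, and 0.27 ± 0.10 SE, adjusted p = 0.124 with the block). Of the 9 members of origin licensing and the helicase, 1 was called with the block, Mcm4.

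Of the fork and nucleotide genes, Rrm2, the regulated subunit of ribonucleotide reductase (chr12:24708241-24714146), had the largest S phase difference after Ccne1. It stood at 37.2, 41.8, 81.1 and 47.5 CPM in TdLN libraries 1 to 4, against 19.7, 23.6, 45.4 and 43.05 CPM in Healthy_iLN libraries 1 to 4. The TdLN library was higher in every prefix, the least so in prefix 4 (log2 fold change 0.66 ± 0.29 SE, adjusted p = 0.595, and 0.66 ± 0.20 SE, adjusted p = 0.0876 with the block). Pcna averaged 139.9 ± 17.98 CPM in TdLN and 118 ± 23.4 CPM in Healthy_iLN (SD, n = 4 each), with overlapping groups (log2 fold change 0.24 ± 0.16 SE, adjusted p = 0.7505, and 0.25 ± 0.10 SE, adjusted p = 0.148 with the block). Rrm1, the partner of Rrm2 in ribonucleotide reductase, was called higher with the block, while Tyms, which makes thymidylate, was not. Pcna, Tyms, Ccnb1 and Ccnb2 have annotated processed pseudogenes, between which the quantification may divide reads, and their values are uncertain to that extent. Protein-coding transcripts held 12.8% of the counts of Gins2, 28.1% of those of Cenpa and 48.8% of those of Tyms, the lowest shares among the members.

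The mitotic members were higher in TdLN in every prefix. Mki67 encodes Ki-67, a coat of mitotic chromosomes used as a marker of dividing cells (chr7:135689784-135716361), and stood at 160.1, 222, 343 and 313 CPM in TdLN libraries 1 to 4, against 97.95, 137, 221 and 248 CPM in Healthy_iLN libraries 1 to 4. It was higher in TdLN in all 4 prefixes although the groups overlapped, with prefixes 3 and 4 high in both groups (log2 fold change 0.56 ± 0.30 SE, adjusted p = 0.6897, and 0.59 ± 0.12 SE, adjusted p = 0.0169 with the block). Top2a averaged 310.2 ± 123 CPM in TdLN and 206 ± 88.7 CPM in Healthy_iLN (SD, n = 4 each). It too was higher in each prefix (log2 fold change 0.59 ± 0.33 SE, adjusted p = 0.715, and 0.61 ± 0.12 SE, adjusted p = 0.0188 with the block).

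Ccnb1, the gene of cyclin B1, the activator of Cdk1 at mitotic entry (chr13:100778650-100786570), stood at 22.2, 25.8, 40.4 and 27.5 CPM in TdLN libraries 1 to 4, against 10.4, 13.2, 26.0 and 20.4 CPM in Healthy_iLN libraries 1 to 4. TdLN was higher in 4 of 4 prefixes (log2 fold change 0.73 ± 0.26 SE, adjusted p = 0.421, and 0.75 ± 0.18 SE, adjusted p = 0.03997 with the block). Birc5, or survivin, a subunit of the chromosomal passenger complex (chr11:117849251-117855743), stood at 20.4, 21.2, 29.0 and 22.5 CPM in TdLN libraries 1 to 4, against 10.7, 11.5, 18.9 and 17.2 CPM in Healthy_iLN libraries 1 to 4. Its groups did not overlap, and it had the smallest p of all members without the block (log2 fold change 0.67 ± 0.20 SE, adjusted p = 0.271, and 0.68 ± 0.15 SE, adjusted p = 0.0232 with the block).

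Cdc20, an activator of the anaphase-promoting complex, one of the promoters with a CHR word printed here, averaged 23.4 ± 7.21 CPM in TdLN and 15.8 ± 6.51 CPM in Healthy_iLN (SD, n = 4 each) and was higher in every prefix (log2 fold change 0.56 ± 0.30 SE, adjusted p = 0.6897, and 0.60 ± 0.12 SE, adjusted p = 0.0175 with the block). Plk1, a kinase of mitotic entry and spindle assembly, averaged 14.9 ± 4.33 CPM in TdLN and 10.1 ± 4.94 CPM in Healthy_iLN and was likewise higher in every prefix (log2 fold change 0.56 ± 0.31 SE, adjusted p = 0.711, and 0.63 ± 0.15 SE, adjusted p = 0.0298 with the block). Cenpf, a kinetochore protein (chr1:189640606-189688086), stood at 28.6, 39.4, 65.4 and 41.0 CPM in TdLN libraries 1 to 4, against 16.3, 21.4, 36.1 and 31.6 CPM in Healthy_iLN libraries 1 to 4. The TdLN library was higher in each prefix (log2 fold change 0.73 ± 0.27 SE, adjusted p = 0.464, and 0.72 ± 0.11 SE, adjusted p = 0.00617 with the block). By role, the block called 8 of 10 kinases, cyclins and ubiquitin genes, 3 of 5 kinetochore and checkpoint genes, 3 of 4 motor and spindle genes and both genes of chromosome structure, Mki67 and Top2a. The mitotic members not called were Cdk1, Ube2c, Cenpa, Cenpe and Kif23.

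The count of 19 changed with each of the 8 libraries left out in turn. It was 4 without Healthy_iLN 3, 5 without Healthy_iLN 1, 6 without Healthy_iLN 2, 6 without TdLN 1, 6 without TdLN 3, 8 without TdLN 2, 10 without TdLN 4 and 34 without Healthy_iLN 4. Ccne1, Cenpf and Kif20a, a mitotic kinesin, were called in each of these 8 fits. Markers of other cells differed beside these counts. Of 7 plasma cell markers tested, Jchain and Mzb1 were called higher by edgeR without the block and by DESeq2, and Xbp1 also with the block. Jchain stood at 28.6 to 87.9 CPM in TdLN and 2.48 to 6.61 CPM in Healthy_iLN, and Mzb1 stood at 10.5 to 19.5 CPM in TdLN and 3.79 to 5.31 CPM in Healthy_iLN, with no overlap for either. The whole plasma cell list, with Irf4 and Xbp1 as its most abundant genes, summed to 321 to 571 CPM in TdLN and 270 to 406 CPM in Healthy_iLN, and Tnfrsf17 was under 1 CPM in every library. With the block 3 of 10 B cell and germinal center markers were called higher, and of 10 T cell markers 1 was called higher and 4 lower. The B cell list summed to 330 to 530 CPM in TdLN and 297 to 494 CPM in Healthy_iLN, and the T cell list to 104 to 203 CPM in TdLN and 118 to 202 CPM in Healthy_iLN. Their part in the result was not tested.

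**Figure D4:**
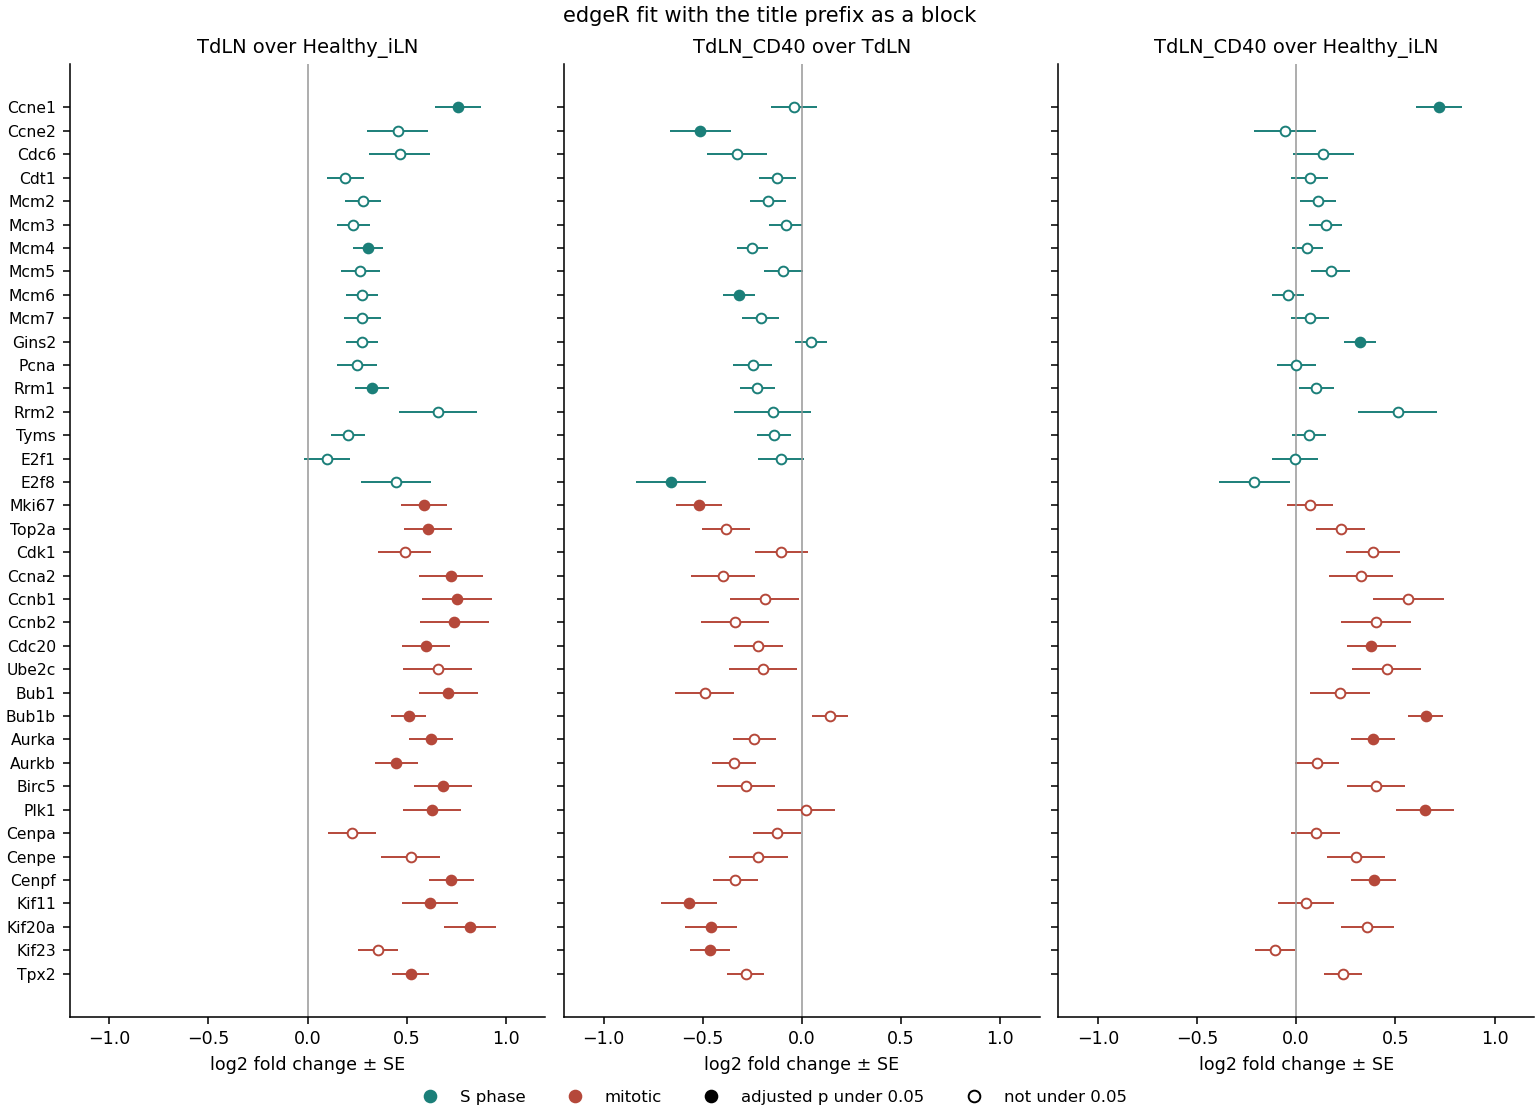
Log2 fold change ± SE of each member from edgeR with the prefix as a block in the 3 comparisons, S phase members in green and mitotic members in red, filled where the adjusted p is under 0.05. In TdLN over Healthy_iLN 19 points are filled, all to the right of 0, in TdLN_CD40 over TdLN 7 are filled, all to the left, and in TdLN_CD40 over Healthy_iLN 7 are filled, all to the right.

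Agonist-treated tumor-draining nodes were compared with tumor-draining nodes to ask how the agonist moves the same genes. Of the 38 members, 36 had a negative log2 fold change, with medians of -0.31 for the mitotic and -0.22 for the S phase members, against 0.017 for all genes. Gins2 and Bub1b were the 2 with a positive value. Without the block no member was called by edgeR or by DESeq2 and 2 were lower at an unadjusted p under 0.05, against 5.59% of all genes. At the adjusted threshold 2.68% of all genes were called, 1.85% higher and 0.830% lower. With the block 7 members were called lower and 0 higher, 3 of 17 S phase members (Ccne2, E2f8 and Mcm6) and 4 of 21 mitotic members (Mki67, Kif11, Kif20a and Kif23). Over all genes 6.58% were called lower with the block, 6.74% higher and 13.3% in either direction.

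Within prefixes, 23 members were lower in TdLN_CD40 in all 4, 11 S phase and 12 mitotic, against 16.4% of all genes. The difference was smaller in prefixes 1 and 2, with mitotic medians of -0.15 and -0.12, than in prefixes 3 and 4, with -0.41 and -0.62. No member was higher in every prefix, against 17.2% of all genes.

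E2f8, an atypical E2F that represses E2F targets (chr7:48866429-48881596), had the largest difference. It stood at 10.1, 12.2, 15.5 and 9.62 CPM in TdLN_CD40 libraries 1 to 4, against 15.9, 15.6, 25.7 and 18.8 CPM in TdLN libraries 1 to 4. It was the 1 member whose groups did not overlap, against 3.40% of all genes lower and 4.86% higher without overlap (log2 fold change -0.68 ± 0.27 SE, adjusted p = 0.267, and -0.66 ± 0.18 SE, adjusted p = 0.0331 with the block). Ccne2 stood at 9.96, 13.4, 11.3 and 8.72 CPM in TdLN_CD40 libraries 1 to 4, against 13.9, 16.1, 19.1 and 12.9 CPM in TdLN libraries 1 to 4. The groups overlapped by a single library on each side (log2 fold change -0.52 ± 0.18 SE, adjusted p = 0.1801, and -0.51 ± 0.15 SE, adjusted p = 0.04895 with the block). Ccne1, its paralog, averaged 8.51 ± 1.96 CPM in TdLN_CD40 and 8.68 ± 1.61 CPM in TdLN (SD, n = 4 each), with a difference near 0 (log2 fold change -0.03 ± 0.24 SE, adjusted p = 0.992, and -0.04 ± 0.12 SE, adjusted p = 0.873 with the block).

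The other S phase members named by rule were lower by less. Pcna stood at 120.3, 114, 136 and 99.1 CPM in TdLN_CD40 libraries 1 to 4, against 130.0, 126, 166 and 137 CPM in TdLN libraries 1 to 4. It was lower in every prefix, with overlapping groups (log2 fold change -0.25 ± 0.16 SE, adjusted p = 0.591, and -0.25 ± 0.10 SE, adjusted p = 0.1297 with the block). Mcm2 (log2 fold change -0.18 ± 0.32 SE, adjusted p = 0.928, and -0.17 ± 0.09 SE, adjusted p = 0.264 with the block) and Mcm5 (log2 fold change -0.10 ± 0.29 SE, adjusted p = 0.966, and -0.09 ± 0.10 SE, adjusted p = 0.611 with the block) overlapped between the groups. Rrm2 averaged 44.6 ± 7.59 CPM in TdLN_CD40 and 51.9 ± 19.9 CPM in TdLN (SD, n = 4 each) and was lower in 2 of 4 prefixes (log2 fold change -0.22 ± 0.28 SE, adjusted p = 0.8801, and -0.15 ± 0.20 SE, adjusted p = 0.703 with the block).

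Of the mitotic members, kinesin motors and Ki-67 were called in the blocked fit. Kif11, the kinesin that pushes spindle poles apart (chr19:37376403-37421859), stood at 37.2, 61.97, 72.9 and 51.7 CPM in TdLN_CD40 libraries 1 to 4, against 54.1, 69.4, 129.5 and 90.1 CPM in TdLN libraries 1 to 4. Each TdLN_CD40 library was below the TdLN library of its prefix (log2 fold change -0.62 ± 0.32 SE, adjusted p = 0.457, and -0.57 ± 0.14 SE, adjusted p = 0.02701 with the block). Kif23, a kinesin of the central spindle (chr9:61915905-61946774), stood at 27.2, 35.7, 42.4 and 31.7 CPM in TdLN_CD40 libraries 1 to 4, against 32.8, 42.9, 62.6 and 54.4 CPM in TdLN libraries 1 to 4. It was also lower in every prefix (log2 fold change -0.49 ± 0.23 SE, adjusted p = 0.401, and -0.46 ± 0.10 SE, adjusted p = 0.00995 with the block). Mki67 stood at 113, 195, 208 and 193 CPM in TdLN_CD40 libraries 1 to 4, against 160.1, 222, 343 and 313 CPM in TdLN libraries 1 to 4. TdLN_CD40 library 1 was the lowest of the 8 (log2 fold change -0.55 ± 0.30 SE, adjusted p = 0.505, and -0.52 ± 0.12 SE, adjusted p = 0.0131 with the block).

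Top2a and the regulators of mitotic entry and exit differed less. Top2a averaged 229.5 ± 62.8 CPM in TdLN_CD40 and 310.2 ± 123 CPM in TdLN (SD, n = 4 each) and was lower in every prefix (log2 fold change -0.43 ± 0.33 SE, adjusted p = 0.709, and -0.38 ± 0.12 SE, adjusted p = 0.0647 with the block). Ccnb1 (log2 fold change -0.23 ± 0.26 SE, adjusted p = 0.844, and -0.19 ± 0.17 SE, adjusted p = 0.5596 with the block) and Cdc20 (log2 fold change -0.25 ± 0.30 SE, adjusted p = 0.868, and -0.22 ± 0.12 SE, adjusted p = 0.283 with the block) were lower in 3 of 4 prefixes. Plk1 averaged 14.9 ± 3.48 CPM in TdLN_CD40 and 14.9 ± 4.33 CPM in TdLN, a difference near 0 in both fits (log2 fold change -0.00 ± 0.31 SE, adjusted p = 0.9999, and 0.02 ± 0.14 SE, adjusted p = 0.953 with the block). By role, 3 of 4 motor and spindle genes were called lower with the block, against 0 of 10 kinases, cyclins and ubiquitin genes, of which 2 were lower at an unadjusted p under 0.05 with the block; no test compared these groups of genes.

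The count of 7 also depended on single libraries. It was 1 without TdLN_CD40 3, 2 without TdLN_CD40 1, TdLN_CD40 4, TdLN 1, TdLN 2 or TdLN 3, 5 without TdLN 4 and 15 without TdLN_CD40 2. Kif23 was called lower in each of these 8 fits and Mki67 in 7. Markers of cell type differed beside these members. The dendritic cell list summed to 14230 to 21500 CPM in TdLN_CD40 libraries and 20400 to 34290 CPM in TdLN libraries. Its most abundant genes were Cd74 and H2-Ab1, of MHC class II. Cd74 stood at 7723 to 12120 CPM in TdLN_CD40 and 11600 to 20970 CPM in TdLN. H2-Ab1 stood at 3350 to 4640 CPM in TdLN_CD40 and 4899 to 7803 CPM in TdLN. Of the 12 markers, 7 were called lower and 2 higher with the block. Of those higher, Ccr7, the chemokine receptor of migratory dendritic cells, was also called without the block. Ccr7 stood at 625 to 949.7 CPM in TdLN_CD40 and 193 to 279.6 CPM in TdLN, with no overlap. Batf3 was also higher without overlap, while Cd209a and H2-Ab1 were lower without overlap. Cd209a stood at 18.4 to 50.9 CPM in TdLN_CD40 and 121 to 239 CPM in TdLN. Clec9a, at 38.8 to 74.8 CPM in TdLN_CD40 and 74.15 to 106.5 CPM in TdLN, reached lower with overlap. So did Xcr1, at 47.6 to 154.4 CPM in TdLN_CD40 and 134.6 to 258.6 CPM in TdLN. With the block 4 of 9 natural killer cell markers were called higher, and their list summed to 108 to 213 CPM in TdLN_CD40 and 91.0 to 139 CPM in TdLN. Gzmb stood at 6.27 to 22.3 CPM in TdLN_CD40 and 2.52 to 3.36 CPM in TdLN, and Gzma stood at 9.78 to 28.1 CPM in TdLN_CD40 and 3.104 to 4.796 CPM in TdLN, both granzymes of cytotoxic cells called higher in both fits. The part of these in the result was not tested.

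**Figure D5:**
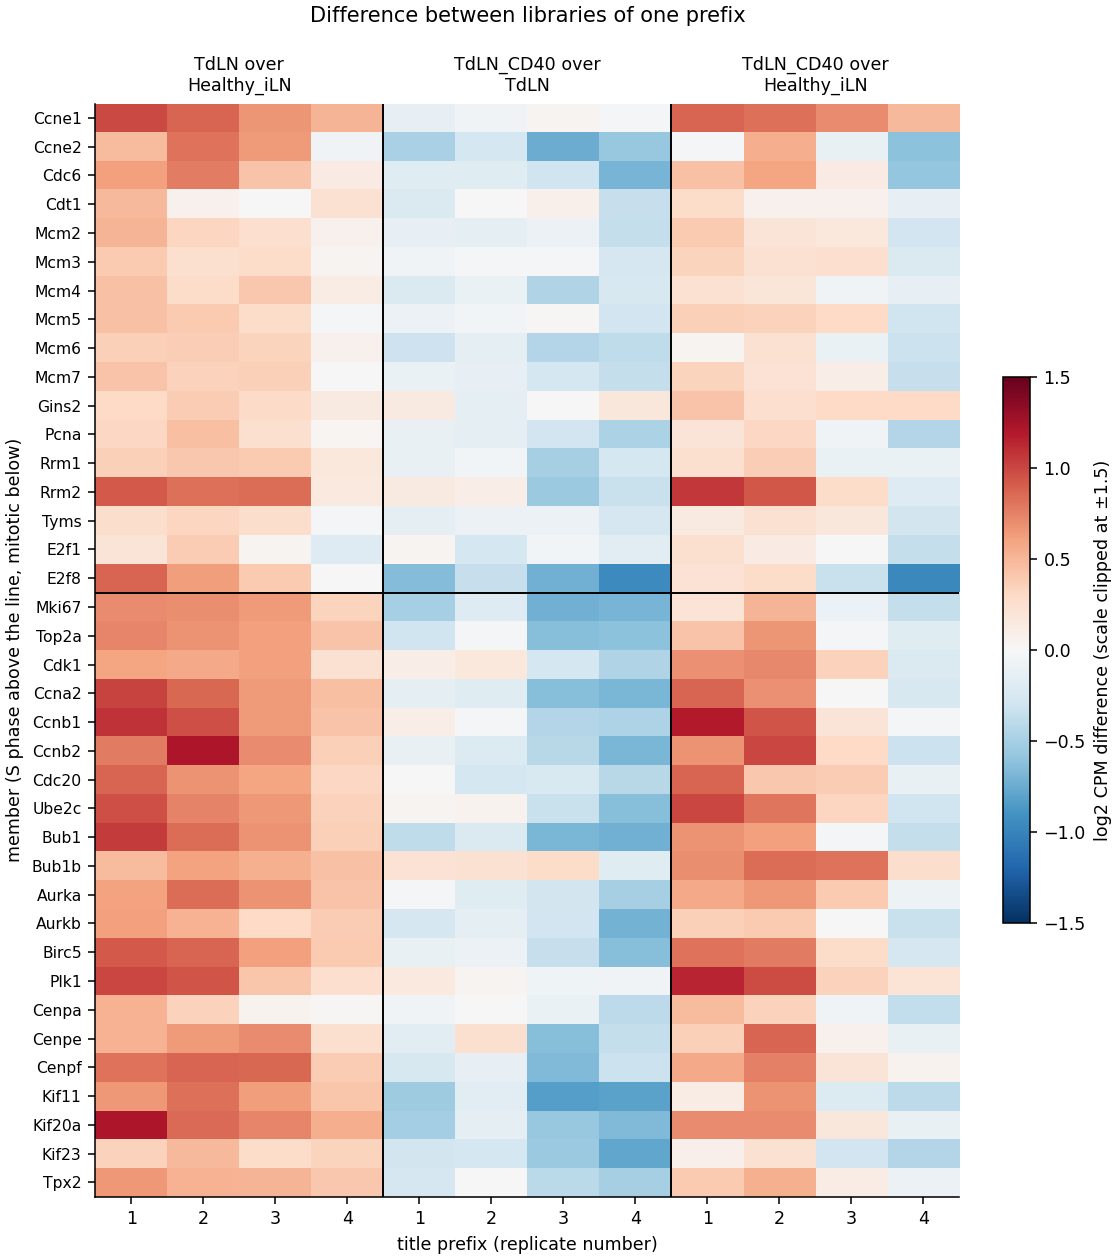
Heat map of the log2 CPM difference between the 2 libraries of each prefix (columns, prefixes 1 to 4 in each of 3 comparisons) for the 38 members (rows, S phase above the line and mitotic below). In TdLN over Healthy_iLN the 21 mitotic members are above 0 in all 4 columns, and in TdLN_CD40 over Healthy_iLN 5 members are above 0 in prefix 4, against 37 in prefix 1 and 38 in prefix 2.

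Agonist-treated tumor-draining nodes were last set against healthy nodes. The median log2 fold change was 0.28 for the mitotic and 0.06 for the S phase members, against -0.03 for all genes, and 31 of 38 were positive. Without the block no member was called by edgeR or DESeq2, and 2 were higher at an unadjusted p under 0.05, against 10.6% of all genes. At the adjusted threshold 6.28% of all genes were called, 4.25% higher and 2.03% lower. With the block 7 were called higher and 0 lower, the S phase members Ccne1 and Gins2 and the mitotic members Cdc20, Cenpf, Aurka, Plk1 and Bub1b, against 11.7% of all genes higher, 8.46% lower and 20.1% in either direction. The prefixes were split. In prefixes 1 and 2, 37 and 38 members were higher in TdLN_CD40, while 26 were in prefix 3 and 5 in prefix 4. No member had groups that did not overlap, against 7.60% of all genes higher and 4.75% lower without overlap. In every prefix 5 members were higher and 0 lower, against 18.7% and 19.8% of all genes.

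Bub1b, or BubR1, a kinase-like protein of the spindle checkpoint (chr2:118598211-118641591), had the smallest p with the block. It stood at 60.4, 82.1, 126 and 88.5 CPM in TdLN_CD40 libraries 1 to 4, against 37.4, 46.1, 72.1 and 73.9 CPM in Healthy_iLN libraries 1 to 4. TdLN_CD40 was higher in every prefix, by the least in prefix 4 (log2 fold change 0.64 ± 0.28 SE, adjusted p = 0.238, and 0.65 ± 0.09 SE, adjusted p = 0.000389 with the block). Ccne1 stood at 6.15, 7.94, 10.8 and 9.12 CPM in TdLN_CD40 libraries 1 to 4, against 3.35, 4.45, 6.61 and 6.51 CPM in Healthy_iLN libraries 1 to 4. It was higher in each prefix and the groups overlapped (log2 fold change 0.70 ± 0.25 SE, adjusted p = 0.125, and 0.72 ± 0.12 SE, adjusted p = 0.00113 with the block). Plk1 stood at 11.7, 13.2, 19.7 and 15.1 CPM in TdLN_CD40 libraries 1 to 4, against 5.28, 6.66, 15.5 and 13.1 CPM in Healthy_iLN libraries 1 to 4, again higher in each prefix (log2 fold change 0.56 ± 0.31 SE, adjusted p = 0.4201, and 0.65 ± 0.15 SE, adjusted p = 0.00842 with the block). Gins2, a subunit of the GINS complex of the replicative helicase, averaged 19.2 ± 4.42 CPM in TdLN_CD40 and 15.5 ± 3.84 CPM in Healthy_iLN (SD, n = 4 each) and was higher in each prefix (log2 fold change 0.31 ± 0.21 SE, adjusted p = 0.537, and 0.32 ± 0.08 SE, adjusted p = 0.01502 with the block). Of its counts 69.15% lay on the retained-intron transcript Gins2-203 and 12.8% on protein-coding transcripts, so its values mostly do not describe the coding RNA.

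Other members differed only in part of the prefixes. Ccnb1 averaged 24.7 ± 4.03 CPM in TdLN_CD40 and 17.5 ± 7.05 CPM in Healthy_iLN (SD, n = 4 each), higher in 3 of 4 prefixes (log2 fold change 0.50 ± 0.26 SE, adjusted p = 0.366, and 0.57 ± 0.18 SE, adjusted p = 0.0517 with the block). Birc5 (log2 fold change 0.38 ± 0.20 SE, adjusted p = 0.378, and 0.40 ± 0.15 SE, adjusted p = 0.0781 with the block), Cdc20 (log2 fold change 0.32 ± 0.30 SE, adjusted p = 0.701, and 0.38 ± 0.12 SE, adjusted p = 0.0486 with the block) and Rrm2 (log2 fold change 0.44 ± 0.28 SE, adjusted p = 0.517, and 0.51 ± 0.20 SE, adjusted p = 0.112 with the block) were also higher in 3 of 4. Mki67 averaged 177 ± 43.4 CPM in TdLN_CD40 and 176 ± 70.2 CPM in Healthy_iLN and Top2a 229.5 ± 62.8 CPM in TdLN_CD40 and 206 ± 88.7 CPM in Healthy_iLN, each higher in 2 of 4 prefixes. Mki67 (log2 fold change 0.01 ± 0.30 SE, adjusted p = 0.992, and 0.07 ± 0.12 SE, adjusted p = 0.725 with the block) and Top2a (log2 fold change 0.15 ± 0.33 SE, adjusted p = 0.883, and 0.23 ± 0.12 SE, adjusted p = 0.234 with the block) had groups that overlapped widely. Pcna (log2 fold change -0.01 ± 0.16 SE, adjusted p = 0.985, and 0.00 ± 0.10 SE, adjusted p = 0.995 with the block), Mcm2 (log2 fold change 0.06 ± 0.32 SE, adjusted p = 0.955, and 0.11 ± 0.09 SE, adjusted p = 0.454 with the block) and Mcm5 (log2 fold change 0.13 ± 0.29 SE, adjusted p = 0.886, and 0.17 ± 0.10 SE, adjusted p = 0.254 with the block) had small values in both fits. Their prefixes were split. Mcm2 and Mcm5 were higher in 3 of 4 prefixes and Pcna in 2 of 4. In prefix 4 the log2 CPM difference was -0.292 for Mcm2, -0.303 for Mcm5 and -0.443 for Pcna.

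With the block, the count of 7 was 3 without Healthy_iLN 1, Healthy_iLN 3 or TdLN_CD40 1, 4 without Healthy_iLN 2 or TdLN_CD40 2, 6 without TdLN_CD40 3, 13 without TdLN_CD40 4 and 16 without Healthy_iLN 4. Bub1b, Ccne1 and Plk1 were called higher in each of these 8 fits. The largest counts thus came from leaving out a library of prefix 4. Cell type markers differed in this comparison too, and their part in the result was not tested. With the block 7 of 12 dendritic cell markers were called lower and 3 higher, 8 of 10 T cell markers lower and 1 higher, 4 of 9 natural killer cell markers higher, 3 of 7 plasma cell markers higher and 1 lower, 4 of 10 B cell and germinal center markers higher and 1 lower, and 4 of 7 monocyte and neutrophil markers higher and 1 lower. Many markers had groups that did not overlap. Those higher included Ccr7, Gzmb, Jchain and Batf3. Those lower included Cd209a and Ccr2, receptors of monocytes and of monocyte-like dendritic cells, and also Xcr1, Clec9a, Flt3, Zbtb46 and H2-Ab1. Batf3 stood at 48.4 to 58.4 CPM in TdLN_CD40 and 30.6 to 41.8 CPM in Healthy_iLN. Xcr1 stood at 47.6 to 154.4 CPM in TdLN_CD40 and 206.1 to 334.0 CPM in Healthy_iLN. Clec9a stood at 38.8 to 74.8 CPM in TdLN_CD40 and 107.4 to 137.3 CPM in Healthy_iLN. Ccr7 stood at 625 to 949.7 CPM in TdLN_CD40 and 201 to 389 CPM in Healthy_iLN. Gzmb stood at 6.27 to 22.3 CPM in TdLN_CD40 and 1.62 to 3.84 CPM in Healthy_iLN. Jchain stood at 18.1 to 49.1 CPM in TdLN_CD40 and 2.48 to 6.61 CPM in Healthy_iLN. Cd209a stood at 18.4 to 50.9 CPM in TdLN_CD40 and 151 to 330.3 CPM in Healthy_iLN. Ccr2 stood at 118 to 144 CPM in TdLN_CD40 and 322 to 496 CPM in Healthy_iLN. The dendritic cell list, with Cd74 and H2-Ab1 as its most abundant genes, summed to 14230 to 21500 CPM in TdLN_CD40 and 20590 to 32430 CPM in Healthy_iLN.

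The S phase and mitotic classes were compared within each library, as the mean log2 CPM of the S phase members minus that of the mitotic members, with no test. The difference was 0.205, 0.06, 0.15 and 0.293 in TdLN_CD40 libraries 1 to 4, 0.202, 0.106, -0.014 and 0.099 in TdLN libraries 1 to 4, and 0.478, 0.384, 0.204 and 0.377 in Healthy_iLN libraries 1 to 4. Every TdLN library was below every Healthy_iLN library, with TdLN 1 at 0.202 and Healthy_iLN 3 at 0.204 the closest. Unlike the class means themselves, this difference varied more by group, with 61.3% of its variance, than by prefix, with 24.7%.

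Within prefixes, the difference was lower in TdLN than in Healthy_iLN by nearly the same amount each time, at -0.276, -0.278, -0.218 and -0.278 (mean -0.26 ± 0.03, SD, n = 4). The mitotic mean was higher in TdLN by 0.61 ± 0.19 and the S phase mean by 0.35 ± 0.19. Between TdLN_CD40 and TdLN the mitotic mean changed by -0.30 ± 0.22 and the S phase mean by -0.22 ± 0.10, so that their difference moved by 0.08 ± 0.12, less than its spread, and was 0.002, -0.046, 0.165 and 0.194 by prefix. Between TdLN_CD40 and Healthy_iLN it was below 0 in 4 of 4 prefixes, at -0.274, -0.324, -0.053 and -0.084 (mean -0.18 ± 0.14).

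These values depend on how a class is summarised. With the median level of a class in place of its mean, the difference was 0.12 in TdLN over Healthy_iLN and 0.19 in TdLN_CD40 over Healthy_iLN, of opposite sign; the median level then rests on a single gene of each class in a library. With the median of the members' own changes, an alternative chosen after seeing the data, it was -0.31 and -0.24 in the same 2 comparisons. Leaving Mki67, Top2a, Cdk1 and Ccna2, which are also made before mitosis, out of the mitotic class gave -0.26 in TdLN over Healthy_iLN.

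Other genes of the cell cycle, listed by role, were read in the same fits. Of 49 other mitotic genes, 0 were called in any comparison by edgeR without the block or by DESeq2, and 28 were called higher with it in TdLN over Healthy_iLN, against 4.02% of all genes, with a median log2 fold change of 0.50 without the block. With the block 8 of the 49 were called lower in TdLN_CD40 over TdLN (median -0.33), against 6.58% of all genes. In TdLN_CD40 over Healthy_iLN 10 were called higher, against 11.7% of all genes, and 1 lower, the condensin subunit Smc4 (median 0.19). Of 42 other S phase genes, 8 were called higher with the block in TdLN over Healthy_iLN (median 0.25), 5 lower and 1 higher in TdLN_CD40 over TdLN (median -0.20), and 8 higher in TdLN_CD40 over Healthy_iLN (median 0.08). These counts are to be read against 4.02% of all genes called higher in the first comparison, 6.58% lower and 6.74% higher in the second and 11.7% higher in the last. By unadjusted p under 0.05 without the block, 15, 2 and 1 of the 49 other mitotic genes passed in the 3 comparisons in that order. The 2 were Cks2 and Pbk, both lower, and the 1 was Mybl2, higher. At that threshold 4.77% of all genes were higher in the first comparison, 5.59% lower in the second and 10.6% higher in the last.

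Among the S phase genes of this list Cdc7 and Gins3 passed without the block. Cdc7, the kinase that fires origins, averaged 9.72 ± 1.69 CPM in TdLN_CD40 and 21.1 ± 3.92 CPM in TdLN (SD, n = 4 each), and the groups did not overlap (log2 fold change -1.12 ± 0.19 SE, adjusted p = 0.00697, and 0.000334 with the block). In Healthy_iLN it averaged 11.7 ± 2.69 CPM, and the difference of TdLN from it was called by DESeq2 (adjusted p = 0.00855) and by edgeR with the block, but not by edgeR without it (log2 fold change 0.85 ± 0.19 SE, adjusted p = 0.0932, and 0.00564 with the block). Gins3, another GINS subunit, averaged 27.6 ± 1.97 CPM in TdLN_CD40 and 17.2 ± 0.977 CPM in TdLN (log2 fold change 0.69 ± 0.12 SE, adjusted p = 0.00635, and 0.000841 with the block) and 18.0 ± 1.96 CPM in Healthy_iLN. Rfc5, a subunit of the clamp loader, was called with the block alone and averaged 50.04 ± 6.25 CPM in TdLN and 37.4 ± 4.83 CPM in Healthy_iLN (log2 fold change 0.42 ± 0.13 SE, adjusted p = 0.2996, and 0.0104 with the block). In TdLN_CD40 over Healthy_iLN, Gins3 (log2 fold change 0.62 ± 0.12 SE, adjusted p = 0.00513, and 0.000891 with the block) and Rfc5 (log2 fold change 0.346 ± 0.13 SE, adjusted p = 0.157, and 0.00646 with the block) were higher.

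Of the other mitotic genes named by rule, none passed without the block, and Anln, Hmmr, Mybl2 and Kif2c did with it, in the comparisons given. Anln, a cytokinesis scaffold, averaged 30.6 ± 10.2 CPM in TdLN and 17.8 ± 6.004 CPM in Healthy_iLN (log2 fold change 0.78 ± 0.24 SE, adjusted p = 0.308, and 0.0170 with the block), and Hmmr, a spindle protein, averaged 29.6 ± 7.55 CPM in TdLN and 19.3 ± 4.46 CPM in Healthy_iLN (log2 fold change 0.62 ± 0.20 SE, adjusted p = 0.356, and 0.00557 with the block). Cks2, a subunit of cyclin-dependent kinases, averaged 6.78 ± 1.05 CPM in TdLN_CD40 and 9.23 ± 2.13 CPM in TdLN (log2 fold change -0.45 ± 0.21 SE, adjusted p = 0.382, and 0.105 with the block), and Pbk, a mitotic kinase, averaged 8.78 ± 2.12 CPM in TdLN_CD40 and 12.96 ± 2.49 CPM in TdLN (log2 fold change -0.56 ± 0.24 SE, adjusted p = 0.317, and 0.0679 with the block). Mybl2, or B-Myb, a subunit of the MYB-MuvB complex, averaged 15.3 ± 3.65 CPM in TdLN_CD40 and 10.02 ± 4.002 CPM in Healthy_iLN (log2 fold change 0.61 ± 0.29 SE, adjusted p = 0.291, and 0.00207 with the block), and Kif2c, a microtubule-depolymerising kinesin, averaged 20.2 ± 3.998 CPM in TdLN_CD40 and 13.6 ± 5.04 CPM in Healthy_iLN (log2 fold change 0.57 ± 0.27 SE, adjusted p = 0.306, and 0.00197 with the block).

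Some inhibitors of the cycle passed the test without the block. Of 33 G1 regulators and inhibitors, Cdkn1a and Cdkn2a were called higher and Btg2 and Cdkn2d lower in TdLN_CD40 over TdLN without the block. Of all genes 1.85% were called higher and 0.830% lower there. Cdkn1a and Cdkn2d were named after their values were seen, as was Ccnd2 in TdLN_CD40 over Healthy_iLN. Cdkn1a, or p21, an inhibitor of cyclin-dependent kinases, averaged 59.5 ± 9.11 CPM in TdLN_CD40 and 37.3 ± 5.79 CPM in TdLN (SD, n = 4 each), and the groups did not overlap (log2 fold change 0.67 ± 0.15 SE, adjusted p = 0.0232, and 0.00236 with the block). Cdkn2a, the locus of p16 and ARF, averaged 5.72 ± 1.40 CPM in TdLN_CD40 and 2.096 ± 0.416 CPM in TdLN (log2 fold change 1.45 ± 0.28 SE, adjusted p = 0.0126, and 0.00215 with the block). It stood at 1.18 ± 0.336 CPM in Healthy_iLN, and the 3 groups did not overlap. Against Healthy_iLN, Cdkn2a had a log2 fold change of 2.28 ± 0.29 SE in TdLN_CD40 (adjusted p = 0.000373, and 0.000103 with the block). In TdLN it was 0.83 ± 0.28 SE (adjusted p = 0.388, and 0.0714 with the block). Cdkn2d, an inhibitor of Cdk4 and Cdk6, averaged 8.59 ± 0.744 CPM in TdLN_CD40 and 14.8 ± 1.38 CPM in TdLN (log2 fold change -0.79 ± 0.18 SE, adjusted p = 0.0335, and 0.00163 with the block).

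Btg2, an antiproliferative gene induced by p53, averaged 145 ± 14.4 CPM in TdLN_CD40 and 247 ± 41.8 CPM in TdLN and 268 ± 25.3 CPM in Healthy_iLN (log2 fold change -0.77 ± 0.14 SE, adjusted p = 0.0105, and 0.000141 with the block against TdLN; log2 fold change -0.89 ± 0.14 SE, adjusted p = 0.00197, and 2.36e-05 with the block against Healthy_iLN). In TdLN_CD40 over Healthy_iLN, Ccnd2, the gene of cyclin D2, was called higher with Cdkn1a and Cdkn2a, and averaged 77.9 ± 14.1 CPM in TdLN_CD40 and 31.8 ± 6.11 CPM in Healthy_iLN (log2 fold change 1.29 ± 0.24 SE, adjusted p = 0.00426, and 4.87e-05 with the block). No gene of this list was called in TdLN over Healthy_iLN by edgeR without the block or by DESeq2. There Ccnd2 averaged 53.37 ± 21.08 CPM in TdLN (log2 fold change 0.747 ± 0.235 SE, adjusted p = 0.308, and 0.00908 with the block). At an unadjusted p under 0.05 without the block 6 of 33 passed, where 4.77% of all genes were higher. With the block 5 were called higher, against 4.02% of all genes.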

How the data were processed

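RNA of CD11c cells from 12 inguinal lymph node samples was sequenced after extraction with a Qiagen micro kit and a strand-keeping NEBNext library kit, per the labels. The authors deposited estimated counts per transcript, without normalization. Per the submitters' processing notes, Salmon and the mouse build mm10 were used. The deposited TPM values came from the same quantification and were scaled per library by the authors. The deposited tables are named for sailfish, a related program. The sources used here give no version, annotation or library-type setting.

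Of 132374 transcripts, 131974 matched GENCODE release M21 (GRCm38) by identifier and were summed to 52355 genes, and the other 400 held 0.116% to 0.148% of a library's counts. Sums were rounded to whole numbers. The main test was edgeR 4.0.16 in R 4.3.3 (quasi-likelihood, robust, TMM scaling, filterByExpr with minimum count 10), with all 12 libraries, the group as the only term and 9 residual degrees of freedom. It left 23729 genes. The biological coefficient of variation was 33.9%, and 20.7% with the block, which left 6 residual degrees of freedom. Log2 CPM used a prior count of 2. The script was tested on simulated data. Libraries of a group differed by a chi-square of at least 24.9 per degree of freedom, so none was a repeat of another.

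The title prefix was checked as a pairing. After subtracting group means, the correlation over genes was 0.20 to 0.47 for the 12 same-prefix pairs and -0.45 to 0.33 (median -0.24) for the 36 pairs that differ in prefix and group, and the prefix was used to pair libraries. Its meaning is not stated in the labels.

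Alternatives were the block, DESeq2 1.42.0, its size factors, no filter, only the libraries of the 2 groups, each library left out, TPM with a pseudocount of 0.5, a prior count of 0.5, a median in place of the mean, and a narrower mitotic class. The block with each library left out and the median of the members' own changes were added after seeing the data. Named in every comparison were Mki67, Top2a, Ccnb1, Cdc20, Plk1, Mcm2, Mcm5, Pcna, Rrm2 and Ccne1, with the 3 members of each class and the 2 genes of each other list that had the smallest p. Members called with the block or in every fit with a library left out, and single cell type markers, were named after their values were seen. The members and lists were chosen with earlier results of these data known.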

Additional observations from a re-analysis of the deposited data

Results flagged for a closer look

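A sample stood apart from the other 3 of its group for 2 members, of 123 groups of 4 values examined, where chance flags about 1 in 20 groups. Mki67 was at 113 CPM in TdLN_CD40 library 1, against 193 to 209 CPM in the other 3 TdLN_CD40 libraries. Tyms was at 19.8 CPM in TdLN_CD40 library 4, against 24.9 to 25.7 CPM in the other 3.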

How the results depend on the processing

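No member was called by edgeR without the block in any of the 3 comparisons under DESeq2's size factors, no filter, the 2 groups alone or any library left out, nor by DESeq2. The replicate block gave 19, 7 and 7 calls in TdLN over Healthy_iLN, TdLN_CD40 over TdLN and TdLN_CD40 over Healthy_iLN, and 4, 5, 6, 6, 6, 8, 10 and 34 for the first, 1, 2, 2, 2, 2, 2, 5 and 15 for the second and 3, 3, 3, 4, 4, 6, 13 and 16 for the last, with 1 library left out. It also brought 18 values of named members past the threshold, with the direction kept.

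The S phase minus mitotic change was 0.12 in TdLN over Healthy_iLN and 0.19 in TdLN_CD40 over Healthy_iLN with the median level, of opposite sign to the mean; the median of members' own changes gave -0.31 in TdLN over Healthy_iLN. With each library left out, it ran from -0.32 to -0.22 in TdLN over Healthy_iLN.

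Values near 0 changed sign without being called. In TdLN_CD40 over Healthy_iLN, Mki67 was -0.017 without a filter and -0.01 with the 2 groups alone, and Pcna was 0.001 with the block. In TdLN_CD40 over TdLN, Plk1 was 0.02 with the block. With each library left out, the ranges in TdLN_CD40 over TdLN were -0.17 to 0.10 for Ccne1, -0.30 to 0.04 for Mcm5, -0.17 to 0.20 for Plk1 and -0.355 to 0.083 for Rrm2. In TdLN_CD40 over Healthy_iLN they were -0.17 to 0.26 for Mcm2, -0.069 to 0.356 for Mcm5, -0.21 to 0.22 for Mki67, -0.114 to 0.069 for Pcna and -0.073 to 0.398 for Top2a. The cause was not tested. Depth did not limit detection of the members, the lowest of which stood above 3 CPM in every library.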
